A study of Mus musculus with 2 samples.

Results

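The Frizzled receptors are the 10 mouse genes *Fzd1* to *Fzd10*, chosen by their symbols among the 31053 genes whose unique molecular identifiers (UMIs, 1 per captured RNA molecule) were counted in single cells of the embryonic eye. All 10 members had UMIs in both libraries. Mouse eyecups at E13.5, when the retina is forming its first neurons, held retina together with lens and blood cells. They were dissociated with papain and run on a droplet platform that tags the 3′ ends of transcripts. The control library came from 1 embryo described as heterozygous for null alleles of both *Six3* and *Six6* (Six3+/-;Six6+/-), with the *Six3* null allele traced by the authors to α-Cre acting in the germ line of the father, whose *Six3* alleles were floxed. The double knockout library (Six3F/F;Six6-/-;a-Cre, hereafter DKO) came from 1 embryo picked for rosettes that carried green fluorescence, which the control lacked. *Six6* was inactivated in every cell of the DKO embryo, whereas *Six3* was removed by a Cre transgene (α-Cre) that acts in the peripheral retina, so the DKO library mixes cells that lost both factors with central cells that kept *Six3*.

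Frizzled proteins are seven-pass membrane receptors that bind lipid-modified Wnt ligands through a cysteine-rich extracellular domain. With LRP5 or LRP6 as co-receptors they signal through Dishevelled to stabilise β-catenin, and without them some members act in planar cell polarity or calcium signalling. In the mouse eye, *Fzd5* is needed for the neural retina and acts together with *Fzd8*, *Fzd4* is the receptor for Norrin in retinal vessel growth, *Fzd3* and *Fzd6* act in planar polarity and axon guidance, and Wnt signalling at the rim of the retina promotes the ciliary margin.

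*Fzd5* and *Fzd1* differed most in their share of the receptors between the libraries, and the 250 bases before the RefSeq start of each gene (build GRCm38.p6) are printed 5′ to 3′ to show how unlike these promoters were in base composition. Both genes lie on the minus strand. The *Fzd5* window was chr1:64737751-64738000 and the *Fzd1* window chr5:4758217-4758466. Capitals mark ATTA, the core recognised by homeodomain proteins (searched as ATTA and TAAT), and CTTTG, the core recognised by TCF/LEF factors (searched as CTTTG and CAAAG), on either strand, and no marked motif overlapped another.
Fzd5: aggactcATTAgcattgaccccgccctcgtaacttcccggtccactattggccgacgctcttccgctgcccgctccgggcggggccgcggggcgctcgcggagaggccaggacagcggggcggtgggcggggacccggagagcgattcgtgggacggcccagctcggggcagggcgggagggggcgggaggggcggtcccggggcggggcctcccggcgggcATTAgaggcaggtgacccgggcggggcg
Fzd1: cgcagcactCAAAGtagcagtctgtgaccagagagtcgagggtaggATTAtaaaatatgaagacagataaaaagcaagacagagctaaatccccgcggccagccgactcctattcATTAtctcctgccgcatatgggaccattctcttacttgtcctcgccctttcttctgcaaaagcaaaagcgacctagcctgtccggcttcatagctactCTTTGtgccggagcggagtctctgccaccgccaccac
The *Fzd5* window was 76.4% G and C, more than 97% of the 32841 promoter windows of the same length, and held 32 CpG dinucleotides. The windows of *Fzd9* and *Fzd10* had the same G and C content. The *Fzd1* window was 51.2% G and C, close to the median of 52.4% over all windows, and held 12 CpG dinucleotides. ATTA lay 243 and 28 bases before the start of *Fzd5*, and 204 and 135 bases before that of *Fzd1*. The TCF/LEF core lay 241 and 37 bases before the start of *Fzd1* and was not in the *Fzd5* window. These short motifs are common, since 54.9% of all windows held ATTA and 48.6% held CTTTG, and a match is a description of the letters and not of a bound site. The longer SIX-type motif TGATAC (or GTATCA) was in 4.64% of all windows and in none of the 6 member windows at hand, those of *Fzd1*, *Fzd4*, *Fzd5*, *Fzd7*, *Fzd9* and *Fzd10*.

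In the GENCODE annotation of the same build, the *Fzd5* gene spans chr1:64730558-64737751 with 2 exons, and its antisense strand carries Gm38058. The *Fzd1* gene spans chr5:4753839-4758035 with 1 exon, and its RefSeq start lies upstream of that annotated 5′ end. *Fzd1*, *Fzd2*, *Fzd7*, *Fzd8*, *Fzd9* and *Fzd10* have 1 exon each, so their UMIs come from a transcript without introns. *Fzd4* has 2 exons, and *Fzd3* and *Fzd6* have 7 each. The *Fzd3* locus (chr14:65192449-65262463) overlaps Gm27263 on its own strand and Gm9086 on the other, and *Fzd6* overlaps Gm26704 on the other strand.

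The control and DKO libraries held 10315 and 12672 cells, of which 9822 and 12146 passed the cell filter, with medians of 7620 and 5879 UMIs per cell. The libraries shared 20 cell barcodes among the kept cells, and 300 control and 329 DKO cells scored as likely doublets and were kept. There was 1 library for each genotype, so no test between genotypes was possible, library and genotype cannot be told apart, and the 95% intervals given here cover counting error only. Levels are given as CPM, the UMIs of a gene scaled to the total UMIs of its cell group. They count 3′ tags, about 1 for each captured molecule whatever the transcript's length, and were not divided by length. Clusters were made without the Frizzled genes, their Wnt partners or *Six3* and *Six6*, and a cluster was named "X-like" only from markers of that cell type. Naïve-like retinal progenitors (3740 control and 3604 DKO cells) stood above the other cells for at least 8 of 9 markers of naïve progenitors, among them *Rax*, *Ccnd1* and *Dapl1*, neurogenic-like progenitors (1447 and 1764 cells) were led by *Atoh7* and *Gadd45a*, and ganglion-like cells numbered 1041 and 2378.

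The targeted genes were read first. In naïve-like cells, *Six6* was at 365 CPM in the control and 44.6 in DKO. *Six3* was at 301 in the control and 224 in DKO. The 3′ tags of both genes lie outside the deleted parts, so these levels do not check the deletions directly. Because *Six3* is lost only in the periphery, DKO cells were clustered alone, and subclusters with *Six3* below 50% of the control naïve-like level were called Six3-low. Of the 3604 DKO naïve-like cells, 1826 were Six3-low (*Six3* at 116 CPM) and 1778 were other cells (340). Because α-Cre acts in the peripheral retina, position and *Six3* loss cannot be told apart by this split, and position was not measured. The summed level of 8 ciliary margin markers was higher in the other cells (729) than in Six3-low cells (579), so the other cells are not taken as central.

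Control naïve-like progenitors held a mix dominated by *Fzd3* and *Fzd5*. *Fzd3*, a receptor of planar polarity and axon guidance, was at 184 CPM (180 to 188) and made up 43.3% of all Frizzled UMIs in these cells. *Fzd5* was at 154 (150 to 158) and made up 36.3%. *Fzd2* followed at 37.6, *Fzd1* at 15.02 and *Fzd8* at 10.5. *Fzd7* was at 7.40, *Fzd4* at 6.67, *Fzd6* at 3.78, *Fzd9* at 3.54 and *Fzd10* at 1.80. In this order, only *Fzd7* with *Fzd4* and *Fzd6* with *Fzd9* had overlapping intervals. The receptors summed to 425 CPM (418 to 431), against 5.57 in control red blood-like cells, which should lack them and where *Fzd5* was at 2.56 and *Fzd1* at 0.223.

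Each member had its own distribution over the control cell groups. *Fzd5* was highest in naïve-like progenitors, at 154, with no overlap with the next group, cluster 6, at 96.1. Cluster 6 stayed unnamed, since it scored above the rest for all 8 ciliary margin markers while the pigment genes *Pmel*, *Trpm1* and *Dct* led it. *Fzd5* was lower along the neuronal path, at 54.5 in neurogenic-like and 25.4 in ganglion-like cells. *Fzd3* changed little along that path, at 184 in naïve-like, 200 in neurogenic-like and 198 in ganglion-like cells. Its highest level was in amacrine or horizontal-like cells (570; 516 to 629), without overlap with the next group, neurogenic-like cells. In amacrine or horizontal-like cells *Fzd3* alone made up 87.5% of the Frizzled UMIs. *Fzd2* was highest in neurogenic-like (64.4), photoreceptor-like (64.1) and cluster 6 cells (59.0), which did not separate. *Fzd8*, the closest relative of *Fzd5*, was highest in cluster 6 (19.7), above naïve-like cells (10.5) without overlap. *Fzd7* was highest in lens-like cells (21.1) and cluster 6 (13.8), *Fzd4* in photoreceptor-like cells (18.0, from 9 UMIs) and cluster 6 (15.5), and *Fzd6* in cluster 6 (8.22) and lens-like cells (5.83).

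**Figure D1:**
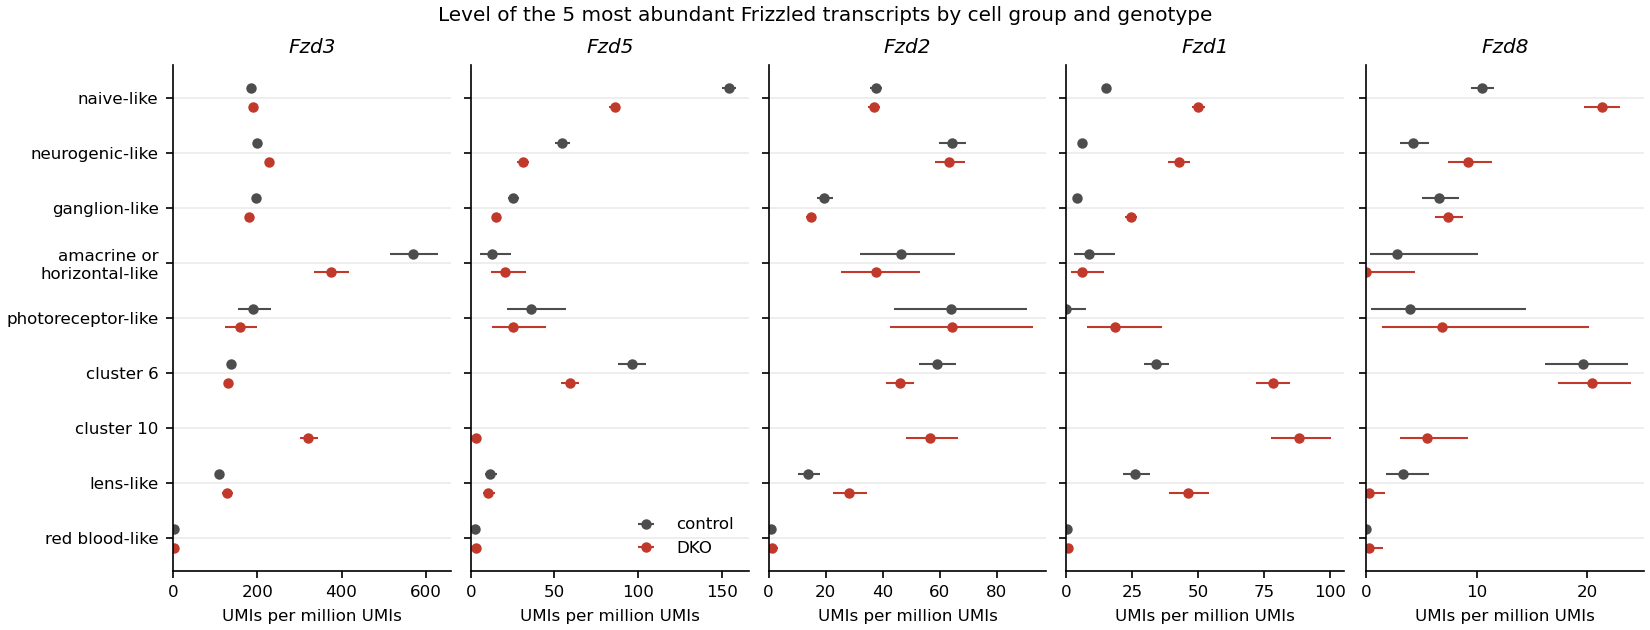
Levels of *Fzd3*, *Fzd5*, *Fzd2*, *Fzd1* and *Fzd8* (x axis, CPM) in each cell group (y axis), with control in grey, DKO in red and bars for 95% counting intervals. *Fzd5* sits highest in control naïve-like cells (154) and *Fzd3* in control amacrine or horizontal-like cells (570), while *Fzd1* lies at 15.02 in control and 50.02 in DKO naïve-like cells.

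In naïve-like progenitors the sum of the 10 receptors was nearly equal in the libraries while the receptors making it up differed. All Frizzled UMIs together were at 425 CPM in the control and 421 in DKO, a log2 ratio of -0.01 (-0.05 to 0.02). *Fzd5* was at 154 in the control and 86.0 (82.8 to 89.4) in DKO, a log2 ratio of -0.84 (-0.91 to -0.78). *Fzd1* was at 15.02 (13.8 to 16.3) in the control and 50.02 (47.6 to 52.6) in DKO, 3.33-fold higher, with a log2 ratio of 1.74 (1.59 to 1.88). The share of *Fzd5* among Frizzled UMIs went from 36.3% to 20.4%, a difference of -15.9 percentage points (-16.9 to -14.9), and that of *Fzd1* from 3.54% to 11.9%, a difference of 8.34 points (7.72 to 8.97). These values depended on how the naïve-like cells were delimited. With the libraries merged in place of integrated before clustering, the log2 ratio was -0.24 for *Fzd5*, no longer past 1.5-fold, and 0.85 for *Fzd1*, and the share differences were -1.93 and 4.2 points. *Fzd1* was the fourth receptor in the control and the third in DKO, above *Fzd2*. The distance between the mixes, the percentage of Frizzled UMIs that would have to move to another member, was 16.2 percentage points, and 7.45 with merged libraries.

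The members with little or no difference included abundant ones. *Fzd3* was at 184 in the control and 190 in DKO (log2 ratio 0.05, -0.00 to 0.10) and *Fzd2* at 37.6 and 36.9 (log2 ratio -0.03, -0.14 to 0.09), so the intervals of both included or touched 0. *Fzd6* was at 3.78 and 3.08, and its interval also included 0 (log2 ratio -0.30, -0.69 to 0.09).

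Among the rarer members, 5 were higher in DKO beyond their intervals. *Fzd8* was at 10.5 in the control and 21.3 in DKO (log2 ratio 1.02, 0.84 to 1.20), and its share of the mix was 2.47% and 5.06%. *Fzd4*, the Norrin receptor, was at 6.67 and 11.03 (log2 ratio 0.73, 0.49 to 0.97). *Fzd7* was at 7.40 and 11.4 (log2 ratio 0.62, 0.39 to 0.85). These remained far below *Fzd3* and *Fzd5* in level. *Fzd9* was at 3.54 and 6.77 (log2 ratio 0.94, 0.61 to 1.26), and *Fzd10* at 1.80 and 4.55 (log2 ratio 1.34, 0.91 to 1.79).

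A gene was counted as past 1.5-fold when its level differed by more than that and it had at least 50 UMIs over both libraries. By this rule 6 of the 10 receptors (*Fzd1*, *Fzd4*, *Fzd7*, *Fzd8*, *Fzd9* and *Fzd10*) were higher in DKO naïve-like cells, against 7.08% of 12734 genes, and 1 (*Fzd5*) was lower, against 3.9%. *Fzd7*, at 1.53-fold, lay just inside the limit. With merged libraries, *Fzd4* (log2 ratio 0.54), *Fzd7* (0.30) and *Fzd8* (0.20) were higher by less than 1.5-fold, *Fzd10* was lower (-0.19), and *Fzd1* and *Fzd9* (0.64) were still past it. *Fzd4* also missed the limit at clustering resolution 1 (0.30), in cells thinned to equal depth (0.46), as a mean over cells (0.55) and in Six3-low cells alone (0.35), and *Fzd7* with no gene left out of clustering (0.57). The median log2 ratio was 0.67 over the 10 receptors and 0.02 over all genes. *Fzd1* was exceeded by 1.31% of genes in its ratio, and 1.82% of genes had a lower ratio than *Fzd5*. Marker levels of other cell types moved with these results. The summed level of 7 markers of telencephalon or Cajal-Retzius cells was 76.2 in control and 114 in DKO naïve-like cells (6 of 7 higher), that of 8 pigment epithelium markers was 8.60 and 42.1 (8 of 8 higher), and that of 8 ciliary margin markers was 437 and 652 (5 of 8 higher). Their part in the receptor differences was not tested.

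**Figure D2:**
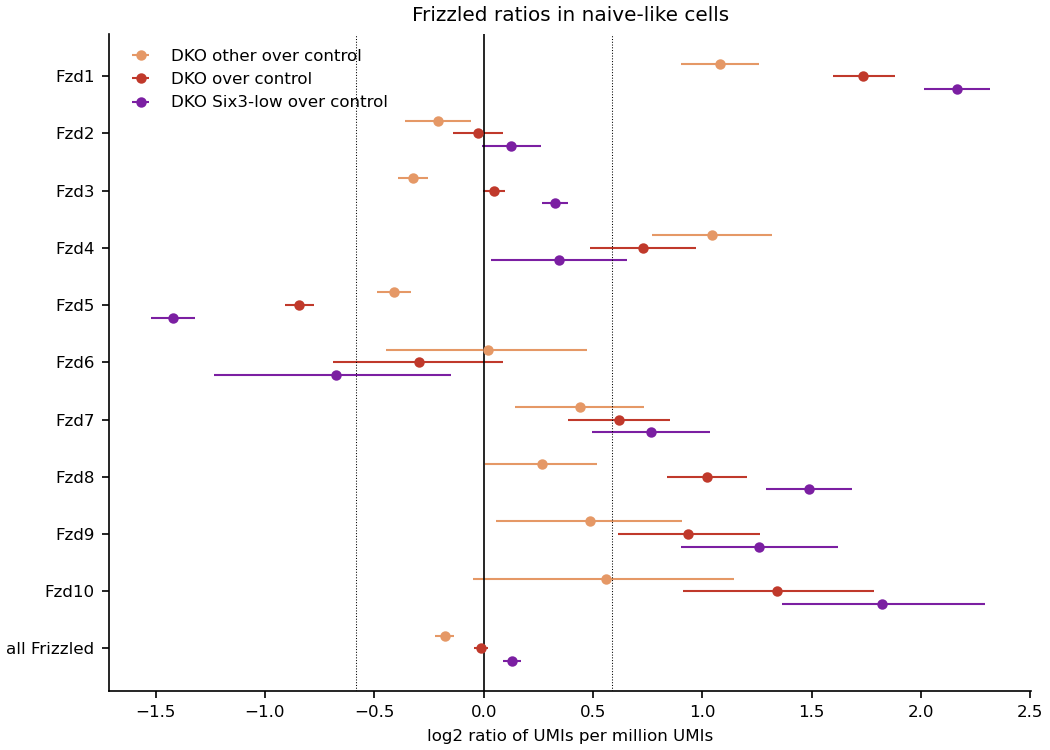
Log2 ratios to control of the 10 receptors in naïve-like cells (x axis, dotted lines at 1.5-fold) for all DKO cells, Six3-low DKO cells and other DKO cells, with 95% counting intervals. *Fzd1* lies at 1.74 for all DKO cells and 2.16 for Six3-low cells, *Fzd5* at -0.84 and -1.42, and *Fzd2* near 0 for all DKO cells (-0.03).

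The naïve-like class joined 3 clusters that differed in cell cycle genes, and the pattern held in each. Cluster 0 had no mitotic or histone genes among its leading genes, cluster 1 was led by replication-dependent histone genes such as Hist1h2ap, and cluster 5 by the mitotic genes *Cenpf* and *Ube2c*. *Fzd5* was at 178 and 85.7 in cluster 0 (log2 ratio -1.05), at 135 and 98.8 in cluster 1 (-0.45), and at 158 and 71.5 in cluster 5 (-1.14), control first. *Fzd1* was at 13.2 and 49.3 in cluster 0 (1.90), at 17.9 and 39.9 in cluster 1 (1.16), and at 11.9 and 62.5 in cluster 5 (2.39). The histone-rich cluster therefore had the smallest difference for both receptors. *Fzd8* had the same order, with log2 ratios of 1.15, 0.32 and 2.03 in clusters 0, 1 and 5. The sum of all receptors differed little in any of them (-0.04, -0.08 and 0.02).

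**Figure D3:**
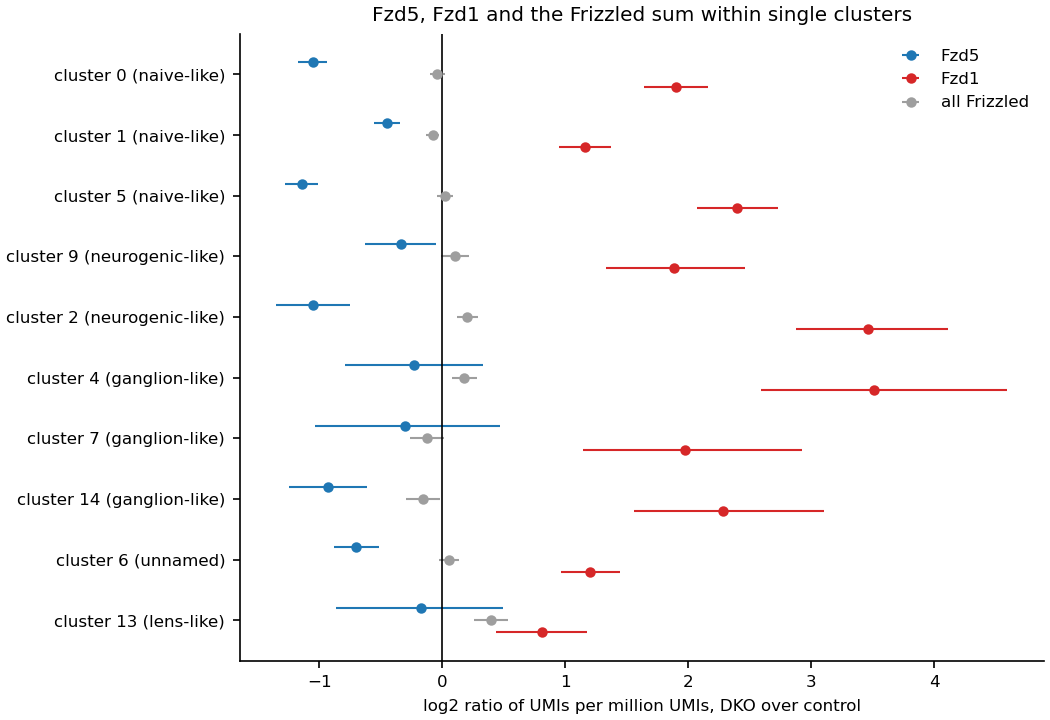
Log2 ratios of DKO over control (x axis) for *Fzd5*, *Fzd1* and the sum of all receptors in 10 clusters (y axis), with 95% counting intervals. *Fzd1* is right of 0 in every cluster shown, from 0.81 in lens-like cluster 13 to 3.51 in cluster 4, and *Fzd5* is left of 0, from -1.14 in cluster 5 to -0.18 in cluster 13.

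The receptor mix of DKO naïve-like cells differed with the *Six3* level of the subcluster. In Six3-low cells, *Fzd5* was at 57.7 and *Fzd1* at 67.2, so *Fzd1* exceeded *Fzd5*. Against control, *Fzd5* had a log2 ratio of -1.42 (-1.52 to -1.32) and *Fzd1* one of 2.16 (2.01 to 2.31). *Fzd3* was at 231, and the sum of all receptors at 464, slightly above the control (log2 ratio 0.13, 0.09 to 0.17). *Fzd8* was at 29.5, *Fzd9* at 8.47 and *Fzd10* at 6.35, with log2 ratios of 1.49, 1.26 and 1.82. In these cells 5 members were higher than control past 1.5-fold (*Fzd1*, *Fzd7*, *Fzd8*, *Fzd9* and *Fzd10*; 7.35% of all genes) and 2 were lower (*Fzd5* and *Fzd6*; 7.62%), and the mix lay 24.3 percentage points from the control mix.

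The other DKO naïve-like cells lay nearer to control. Their *Fzd5* level was 116 (log2 ratio -0.41, -0.49 to -0.33) and their *Fzd1* level 31.8 (1.08, 0.90 to 1.26). Past 1.5-fold, 2 members were higher than control (*Fzd1* and *Fzd4*; 6.23% of all genes) and 0 were lower (2.75%), and the mix lay 9.74 percentage points from control. *Fzd3* was lower than control in these cells (147) and higher in the Six3-low cells, so its near-equality in the whole class was an average of opposite differences. *Fzd4* was higher in the other cells (13.7) than in the Six3-low cells (8.47). The pigment and ciliary margin marker sums were also higher in the other cells (60.3 and 729) than in the Six3-low cells (25.04 and 579), and their part in the *Fzd4* level was not tested.

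A comparison within the DKO library, which keeps library and *Six6* genotype equal, gave 5 members higher in Six3-low than in other naïve-like cells past 1.5-fold, namely *Fzd1*, *Fzd3*, *Fzd8*, *Fzd9* and *Fzd10*, against 4.17% of all genes. *Fzd4*, *Fzd5* and *Fzd6* were lower (3 members, 6.87% of all genes). *Fzd1* had a log2 ratio of 1.08 (0.92 to 1.24) and *Fzd5* one of -1.01 (-1.13 to -0.89). *Fzd8*, at 12.6 in the other cells and 29.5 in Six3-low cells, had a log2 ratio of 1.22. The telencephalic marker sum was higher in the Six3-low cells (170) than in the other cells (55.3), whereas that of 9 naïve progenitor markers was lower (2275 against 4421). The part of either in the receptor mix was not tested.

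Single subclusters spread further than either class, with *Six3* and the receptors both read here in their naïve-like cells. Subclusters 2 and 3, with *Six3* at 41.8% and 32.4% of the control level, had *Fzd5* at 63.3 and 47.2, *Fzd1* at 65.6 and 70.9, and *Fzd8* at 25.5 and 37.7. Subclusters 5 and 9, with *Six3* at 114% and 182%, had *Fzd5* at 131 and 152, *Fzd1* at 10.0 and 11.4, and *Fzd8* at 5.80 and 7.12. In these cells *Fzd5* made up 39.8% and 42.6% of the mix and *Fzd1* 3.04% and 3.20%, close to or above the control share for *Fzd5* and near it for *Fzd1*. *Six6* was inactivated in all of the DKO subclusters, and its part in the mix was not tested. Subcluster 10, with *Six3* at 60.3%, lay between them for *Fzd5* (76.5) and *Fzd1* (54.7) and had the highest *Fzd4* level of the subclusters named here (27.5). Subcluster 12, with 80 naïve-like cells, was the exception among the 6 subclusters, with *Six3* at 110%, *Fzd5* at 155 and *Fzd1* at 91.9.

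**Figure D4:**
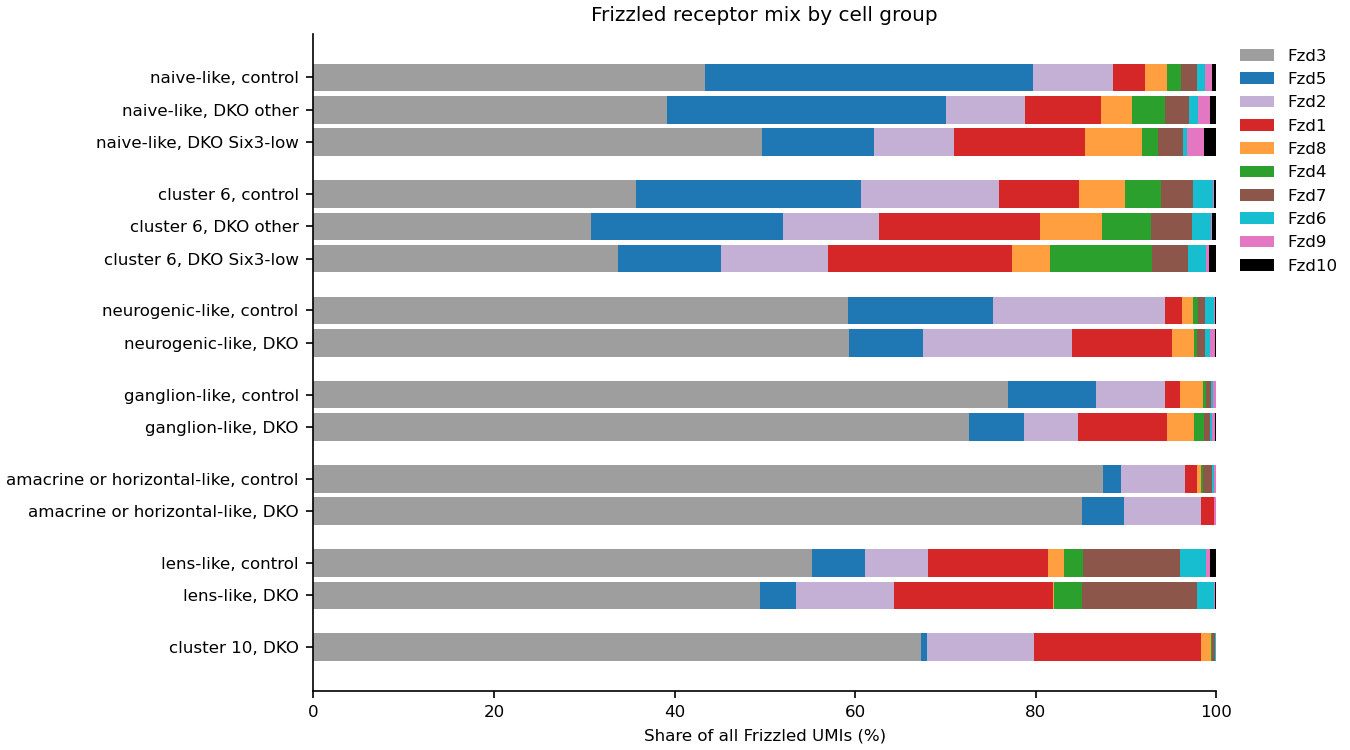
Share of each receptor among all Frizzled UMIs (x axis, %) as stacked bars for control and DKO cells of the groups shown (y axis), with DKO naïve-like and cluster 6 cells split into Six3-low and other cells. *Fzd5* takes 36.3% of the control naïve-like bar and 12.4% of the Six3-low bar, *Fzd1* takes 3.54% and 14.5%, and cluster 10 (DKO cells only) is 67.3% *Fzd3*.

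Counting cells in place of UMIs gave the same picture. To equalise depth, 2000 UMIs were drawn from every cell, and 39 control and 57 DKO naïve-like cells with fewer were dropped. A *Fzd5* UMI was then seen in 27.9% of control, 21.9% of other DKO and 10.3% of Six3-low naïve-like cells. A *Fzd1* UMI was seen in 2.86%, 5.04% and 13.3% of the same cells. At least 1 Frizzled UMI was seen in 56.2% of control and 55.0% of DKO naïve-like cells, against 1.22% and 1.30% of red blood-like cells (*Fzd5* 0.753% and 0.186%, *Fzd1* 0.0941% and 0.186%). Red blood-like cells served as a stand-in for background, since free RNA was not measured. Without thinning, a *Fzd5* UMI was in 70.7% of control and 44.3% of DKO naïve-like cells and a *Fzd1* UMI in 11.95% and 27.9%, at median depths of 8552.5 and 7393.5 UMIs (8455 and 6331 in red blood-like cells).

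The cells with *Fzd1* and those with *Fzd5* were largely different at this depth. Of 3701 thinned control naïve-like cells, 996 had *Fzd5* alone, 71 had *Fzd1* alone and 35 had both. Of 1801 Six3-low cells, 159 had *Fzd5* alone, 213 had *Fzd1* alone and 26 had both. Cells with *Fzd1* alone therefore outnumbered those with *Fzd5* alone in the Six3-low group. With all UMIs, 9.20% of control and 13.3% of Six3-low cells had both, so the number of cells with both depended on depth, and the counts do not show that the receptors exclude each other.

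**Figure D5:**
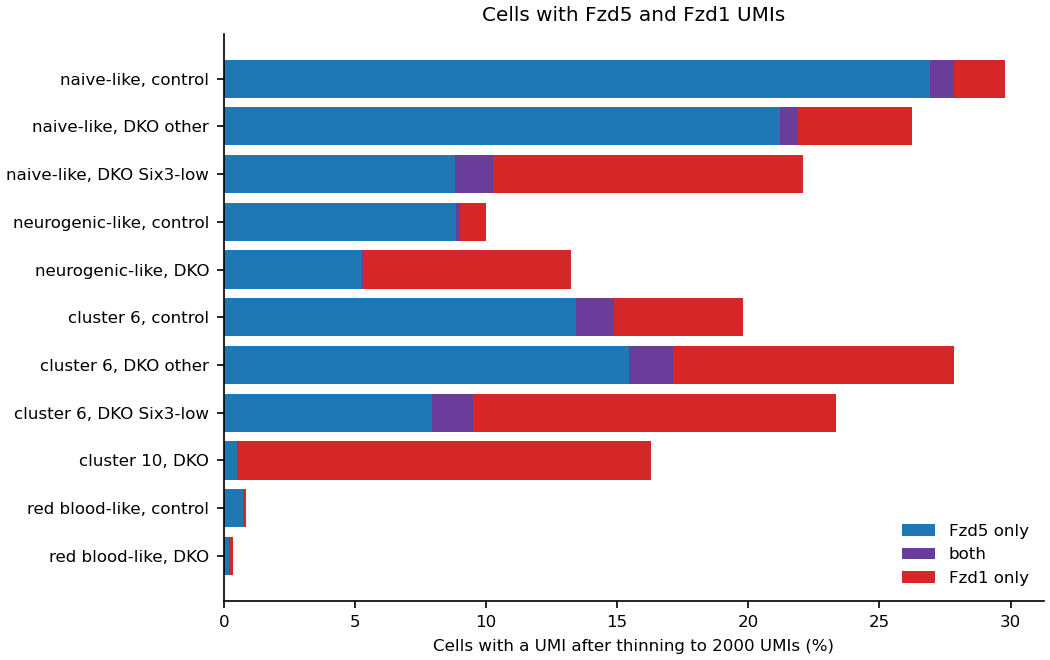
Percentage of cells (x axis) with a UMI of *Fzd5* only, *Fzd1* only or both after thinning to 2000 UMIs per cell, in control and DKO cells of the groups shown (y axis). In naïve-like cells, 996 of 3701 control cells had *Fzd5* only and 213 of 1801 Six3-low cells had *Fzd1* only.

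Cluster 6, which expressed ciliary margin and pigment genes, had a mix of its own. *Fzd1* was at 33.9 in control and 78.2 in DKO cells (log2 ratio 1.20, 0.97 to 1.45), and *Fzd4* at 15.5 and 37.4 (1.27, 0.92 to 1.63). *Fzd5* was at 96.1 and 59.2 (-0.70, -0.88 to -0.52). Of 8 members with enough UMIs, these 2 were higher past 1.5-fold (7.37% of all genes) and 1 was lower (4.97%), and the sum was 386 and 401. *Fzd8* did not differ beyond its interval here (19.7 and 20.5), unlike in naïve-like cells. In the split by *Six3*, *Fzd5* was at 45.1 in Six3-low and 88.2 in other DKO cells of cluster 6, *Fzd4* at 44.6 and 22.6, and *Fzd1* at 80.3 and 73.9. The same split separated pigmented from less pigmented cells, with a pigment marker sum of 1435 in Six3-low cells (7 of 8 above control) and 67.1 in the other cells (0 of 8), and a red blood marker sum of 6512 and 620.8. The ciliary margin sum was 2346 and 1960. The *Fzd1* levels of the subsets overlapped (log2 ratio 0.12, -0.13 to 0.38), so in cluster 6 *Fzd1* was above control in both. The pigment marker sum was 607 in control and 989 in all DKO cells of the cluster (4 of 8 markers higher) and the ciliary margin sum 1420 and 2220 (3 of 8 higher). The part of these markers in the receptor differences was not tested.

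In neurogenic-like progenitors, which are committed to forming neurons, *Fzd1* was at 6.14 in control and 42.6 in DKO cells, 6.93-fold higher (log2 ratio 2.79, 2.41 to 3.19). Its share of the mix was 1.82% and 11.1%. Of the 1764 DKO cells, 1728 were not Six3-low, and *Six3* was at 313 in control and 292 in DKO cells. After thinning, a *Fzd1* UMI was in 1.125% of control cells and 7.84% of DKO cells that were not Six3-low. *Fzd5* was at 54.5 and 31.3 (-0.80, -1.01 to -0.59). *Fzd8* was at 4.25 and 9.23 (1.12, 0.58 to 1.67), while *Fzd2* (64.4 and 63.5) and *Fzd3* (200 and 228, log2 ratio 0.19) differed by less than 1.5-fold. Of 7 members with enough UMIs, 2 were higher past 1.5-fold (*Fzd1* and *Fzd8*; 7.74% of all genes) and 2 lower (*Fzd5* and *Fzd6*; 4.89%). *Fzd6* rested on few UMIs, and its interval included 0 (-0.68, -1.55 to 0.15). The sum was 338 in control and 384 in DKO (log2 ratio 0.18, 0.12 to 0.25). Only 0.413% of genes had a higher ratio than *Fzd1*. The class joined clusters 2 (914 control and 1356 DKO cells) and 9 (533 and 408), whose balance differed between the libraries. *Fzd1* had log2 ratios of 3.46 in cluster 2 and 1.88 in cluster 9, and *Fzd5* had log2 ratios of -1.05 and -0.33, the latter not past 1.5-fold. The telencephalic marker sum was 134 in control and 287 in DKO cells, and its part was not tested.

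In ganglion-like cells *Fzd1* was at 4.11 in control and 24.5 in DKO (log2 ratio 2.58, 2.11 to 3.08), and its share was 1.59% and 9.82%. Of the 2378 DKO cells, 2200 were not Six3-low, and *Six3* was at 692 in control and 653 in DKO cells. *Fzd5* was at 25.4 and 15.3 (-0.73, -0.98 to -0.47), and the sum of all receptors at 258 and 250. *Fzd2*, at 19.6 and 14.9, had a log2 ratio of -0.40. Of 6 members with enough UMIs, 2 were higher past 1.5-fold (*Fzd1* and *Fzd4*; 9.32% of all genes) and 1 lower (*Fzd5*; 3.74%). Cluster 14 of this class was 86.9% likely doublets. Without it *Fzd5* was at 9.33 and 7.45, with a log2 ratio of -0.32 (-0.76 to 0.12), *Fzd2* was past 1.5-fold (-0.66), and *Fzd4* had too few UMIs to be read (4 and 17). *Fzd1* was then at 2.90 and 19.7 (2.77), so its difference did not rest on that cluster. The clusters left, 4 (592 control and 1122 DKO cells) and 7 (339 and 999), differed in balance between the libraries. Within them *Fzd2* had log2 ratios of -0.45 in cluster 4 and -0.07 in cluster 7 (10 and 23 UMIs), neither past 1.5-fold. The telencephalic marker sum was 68.1 in control and 190 in DKO ganglion-like cells and the red blood marker sum 9110 and 1228, and the part of either was not tested.

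Cluster 10 held 601 DKO cells and 0 control cells and was led by *Rspo3*, *Tbr1*, *Lhx9* and *Eomes*, with 6 of 7 telencephalic or Cajal-Retzius markers above the other cells. *Six3* was at 96.2 CPM and *Six6* at 27.1. Its receptor mix was nearly free of *Fzd5*, which was at 2.97 (8 UMIs) and made up 0.622% of Frizzled UMIs. *Fzd3* was at 322 (300 to 344) and made up 67.3%, *Fzd1* was at 88.4 (77.5 to 100) and made up 18.5%, and *Fzd2* was at 56.8 and made up 11.9%. *Fzd8* was at 5.57, *Fzd4* had 1 UMI and *Fzd9* had none. Compared with control naïve-like cells, *Fzd5* was 51.9-fold lower (log2 ratio -5.70, -6.91 to -4.72), *Fzd1* had a log2 ratio of 2.56 and *Fzd9* was at least 3.18-fold lower, with 3 UMIs in the cluster as the floor. Compared with Six3-low naïve-like cells of the same library, *Fzd5* was 19.4-fold lower, *Fzd8* had a log2 ratio of -2.40 and *Fzd7* one of -3.08, while *Fzd1* had one of 0.39. The *Fzd1* level was thus nearer to that of Six3-low than of control naïve-like cells, and the *Fzd5* level was close to the 3.06 of DKO red blood-like cells. Naïve-like cells are progenitors, whereas cluster 10 had a ganglion marker sum of 4704 and a naïve progenitor marker sum of 746. In ganglion-like cells without cluster 14, *Fzd5* was at 9.33 in control and 7.45 in DKO. *Fzd3* made up 198 of 258 CPM in control ganglion-like cells. The part of neuronal state in these differences was not tested. After thinning, a *Fzd1* UMI was in 15.8% of the cells of cluster 10 and a *Fzd5* UMI in 0.509% (3 of 589).

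In amacrine or horizontal-like cells *Fzd3* was at 570 in the control and 374 (334 to 418) in DKO (log2 ratio -0.61, -0.83 to -0.39). With *Fzd2* it was 1 of 2 members with enough UMIs, and 1 was lower past 1.5-fold (6.66% of all genes) and 0 higher (5.89%). *Fzd3* still made up 85.1% of the DKO mix. *Fzd5* (9 and 17 UMIs) and *Fzd1* (6 and 5) could not be read in these cells. The sum of 7 red blood markers was 8727 in control and 24620 in DKO cells (6 of 7 higher) and that of the class's own 8 markers 1549 and 2238 (8 of 8 higher), and their part in the *Fzd3* difference was not tested. In photoreceptor-like cells *Fzd1* had 0 UMIs in the control and 8 in DKO, *Fzd3* was at 190 and 158, and *Fzd2* at 64.1 and 64.3, and neither of the latter was past 1.5-fold.

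Lens-like cells, which lie outside the retina where α-Cre acts, differed as well. *Fzd1* was at 26.2 in control and 46.0 in DKO (log2 ratio 0.81, 0.44 to 1.18), *Fzd2* at 13.8 and 28.2 (1.02), and *Fzd7* at 21.1 and 33.2 (0.65, 0.23 to 1.08). Of 5 members with enough UMIs these 3 were higher past 1.5-fold (11.8% of all genes) and 0 were lower (3.91%). *Fzd5* was at 11.7 and 10.3, near equal. All genes had a median log2 ratio of 0.17 in these cells, and the summed level of 8 lens markers was 87240 in control and 42070 in DKO. The part of lens marker content in the lens receptor levels was not tested.

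Across the cell groups read, *Fzd1* and *Fzd5* kept their direction, whereas *Fzd2* and *Fzd3* did not. *Fzd9* and *Fzd10* had enough UMIs in 1 class only. *Fzd1* was higher in DKO in 5 of 5 classes with enough UMIs (log2 ratios 0.81 to 2.79) and in 10 of 10 clusters. The minimum is on the sum of both libraries, so a group with few control UMIs can enter on its DKO UMIs. Cluster 4 (10 control and 171 DKO UMIs) and cluster 7 (13 and 123) entered that way. Below the minimum, *Fzd1* was higher in clusters 3, 12, 15, 17 and 18. It was lower in cluster 16 (6 control and 5 DKO UMIs, log2 ratio -0.48, -2.53 to 1.49). The counts therefore do not show that *Fzd1* was higher in every group. *Fzd5* was lower in 7 of 7 classes, 5 of them past 1.5-fold. Of these 5, ganglion-like cells were no longer past it without cluster 14, and the unnamed cluster 12 held 20.6% likely doublets. In lens-like cells and cluster 3 its interval included 0. *Fzd8* and *Fzd7* were higher in 4 of 4 classes, each past 1.5-fold in 2. The interval of *Fzd8* included 0 in ganglion-like cells (0.18, -0.26 to 0.63) and cluster 6 (0.06, -0.30 to 0.42). That of *Fzd7* included 0 in cluster 6 (0.28, -0.14 to 0.71). In lens-like cells *Fzd8* was below the minimum, with 14 control UMIs and 1 DKO UMI, and was lower in DKO (-3.44, -8.84 to -0.73). Within clusters, *Fzd7* was higher in 5 of 5 and *Fzd8* in 7 of 8, with cluster 7 the exception (log2 ratio -0.49). *Fzd4* was higher in 3 of 3 classes, of which ganglion-like cells could not be read without the doublet-rich cluster 14, and in 4 of 4 clusters. *Fzd6* was lower in 3 of 3 classes, past 1.5-fold in 1, but higher in 2 of 3 clusters, where its log2 ratios ran from -0.01 to 0.13. *Fzd2* was higher in 2 and lower in 5 of 7 classes, and *Fzd3* higher in 6 and lower in 4 of 10. The classes share the same libraries and are not independent. Over all kept cells, whose makeup differed, *Fzd1* was at 12.2 in the control and 43.0 in DKO and *Fzd5* at 90.5 and 47.6.

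Wnt pathway partners of the receptors were read as 10 lists with 67 genes, of which 43 had enough UMIs in naïve-like cells. There, 12 were higher and 4 lower in DKO past 1.5-fold (over all genes 7.08% and 3.9%), with a median log2 ratio of 0.07 against 0.02 over all genes. Of 7 Wnt ligands read, *Wnt3a*, *Wnt7b* and *Wnt16* were higher and *Wnt4* was lower. *Wnt7b* was at 0.544 in the control and 15.7 in DKO (log2 ratio 4.85). *Wls*, which carries lipidated Wnts to the cell surface, was at 0.925 and 91.1 (6.62). Of 3 secreted Frizzled-related proteins, which compete for Wnts, *Sfrp2* was lower. The co-receptor *Ror2* was higher among 6 read. In the list of 4 genes of the Norrin and Wnt7 receptor complexes, *Ndp* was higher and *Adgra2* lower. Among 5 genes of R-spondins, which keep Frizzled proteins at the cell surface, and of receptor turnover, *Rspo1* and *Rspo3* were higher and *Lgr5* was lower (27.3 and 4.78, log2 ratio -2.52). None of the 3 Dishevelled genes and none of the 3 genes of Frizzled transport was past 1.5-fold. Of 5 planar polarity genes *Celsr1* and *Vangl1* were higher, and of 5 β-catenin response genes *Axin2* (2.42 and 21.7, log2 ratio 3.16) and *Lef1* (5.09 and 21.1, 2.05) were higher.

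The same lists gave 11 higher and 6 lower of 37 read in Six3-low naïve-like cells (over all genes 7.35% and 7.62%), where the planar polarity genes *Celsr1*, *Celsr2*, *Vangl1* and *Vangl2* were higher, 4 of 4 read. In neurogenic-like cells 8 were higher and 7 lower of 31 (7.74% and 4.89%), with *Rspo3* at 0.473 and 34.1 (log2 ratio 6.17) and *Nkd1*, a feedback inhibitor of the pathway, at 43.6 and 112 (1.36). In ganglion-like cells 7 were higher and 5 lower of 32 (9.32% and 3.74%). In cluster 6, the counts were 9 higher and 3 lower of 36 (7.37% and 4.97%). In cluster 10, *Rspo3* was at 419, *Celsr3* at 39.0 and *Sfrp2* at 18.9, against 0.463, 0.381 and 1973 in control naïve-like cells. *Lgr5* and *Ror1* (1 UMI each) and *Lgr4* (6.68) were lower there, against 27.3, 8.24 and 65.4. The part of the neuronal state of cluster 10 in these differences was not tested.

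Likeness of pattern was read over 25 combinations of cell group and library as the Pearson correlation of log2(CPM + 10) among 10998 genes with at least 500 UMIs. These points share 2 libraries, and the values are descriptions. *Fzd5* was most like *Nedd9* (0.918), *Slc1a3* (0.915) and *Ildr2* (0.909), and its nearest fellow receptor was *Fzd8* (0.576). Its correlation with *Fzd1* was 0.114. *Fzd3* was most like *Rbm4b* (0.964), *Ddr1* (0.963) and *Enah* (0.962), and *Fzd2* like *Ccdc88c* (0.933), *Numa1* (0.914) and *Yeats2* (0.912). *Fzd3* and *Fzd2* were the receptors most like each other, at 0.787, while *Fzd6*, *Fzd9* and *Fzd10* had fewer than 500 UMIs and were left out.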

How the data were processed

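Single-cell 3′ libraries (10x chemistry) of 1 control and 1 DKO eyecup sample were measured. The authors deposited raw UMI counts per gene and cell. The submitters' processing notes name Cell Ranger 3.1.0 and mm10. The study's cell filter was applied (200 to 6000 genes, mitochondrial UMIs below 20%). Clusters were made anew with Seurat 5.3.0 in R 4.3.3 (integration on 2000 features, 20 dimensions, resolution 0.5, 91 genes left out), so cluster numbers are not the study's. A cluster took a name when at least 80% of that type's markers stood above the other cells, at least 3 were detected and its leading genes did not go against it. That share was set after the clusters were seen. Scrublet in scanpy 1.11.5 gave doublet scores (limit 0.225, set after the control's automatic limit had marked none), and doublets were kept. Python 3.11.15 with numpy 2.4.6, scipy 1.17.1, pandas 2.3.3 and matplotlib 3.10.9 did the rest. Levels carry exact Poisson intervals, ratios and shares exact binomial ones, and share differences Newcombe's, all at 95%. Classes needed 50 cells in each library, and a count of 0 allows 3. Partner genes named within a list were past 1.5-fold with at least 50 UMIs over both libraries. Levels were printed for partner genes among the 6 furthest past 1.5-fold with at least 100 UMIs. Similar genes were named as the 3 highest correlations. The calculations were tested on simulated data. The members and lists were chosen with earlier results of these data known. The total UMI counts of the kept cells were 80511672 and 81056488.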

Additional observations from a re-analysis of the deposited data

How the results depend on the processing

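No paired analysis was possible because control and DKO each came from 1 library, and for the same reason no replicate could be left out. In naïve-like cells, the log2 ratio of *Fzd1* (1.74) was 1.95 at clustering resolution 1, 0.85 with cells merged in place of integrated, 1.53 with no gene left out of clustering and 2.16 in Six3-low cells alone. That of *Fzd5* (-0.84) was -0.75, -0.24, -0.74 and -1.42 in the same order, that of all receptors (-0.01) was -0.058, -0.16, -0.053 and 0.13, and the mix distance (16.2 percentage points) was 15.03, 7.45, 14.3 and 24.3. The share difference of *Fzd5* (-15.9) was -14.8, -1.93, -13.7 and -23.9, and that of *Fzd1* (8.34) was 4.2 merged and 10.9 in Six3-low cells. Merging, which left 4169 control and 2020 DKO naïve-like cells, also reversed the *Fzd10* log2 ratio (1.34 to -0.19), its share difference (-0.00913) and that of *Fzd3* (-4.66). The cause was not tested. The 901 genes higher past 1.5-fold became 1253 with a minimum of 20 UMIs, 479 with 200, 2218 with none and 406 past 2-fold, and the 497 lower became 752, 271, 1634 and 151. Of the receptors, 3 were higher and 0 lower past 2-fold. Leaving out cluster 14 or all doublets in ganglion-like cells, alternatives chosen after seeing the data, gave *Fzd5* log2 ratios of -0.32 and -0.35. With 1 library for each genotype, depth narrows the counting intervals but not the unknown spread between embryos.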

Other observations

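Clusters that stayed unnamed also held Frizzled UMIs. In cluster 12, led by hemoglobin genes and with 20.6% likely doublets, *Fzd5* was at 70.0 CPM in the control and 14.2 in DKO (log2 ratio -2.30, -3.27 to -1.45). In cluster 3, whose cells had few UMIs, *Fzd5* was at 38.6 and 25.8 (-0.58) and *Fzd1* at 2.97 and 16.1. In cluster 15, led by γ-crystallin genes and also low in UMIs, *Fzd3* was at 58.6 and 109 (0.90) and all receptors at 84.8 and 191. Macrophage-like cells (55 control and 162 DKO) held 30 and 79 Frizzled UMIs in all, and mesenchyme-like cells (4 and 32) were too few to compare.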
